A study of Mus musculus with 9 samples.

Results

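Livers that had received human glucocorticoid receptor β through an adeno-associated virus, AAV (AAV-hGRβ, 3 arrays) were compared with livers that had received green fluorescent protein the same way (AAV-GFP, 3 arrays), so that both groups had received a vector. These 6 of the 9 arrays of the study were taken by their labels, and the remaining 3 arrays, from untreated livers, stand beside them for levels. All mice were C57BL/6 males aged 3 months, and the tissue was a single liver lobe, labelled A, in every group. Dose, route, serotype, promoter and time after the vector were not given in the sources used here, and no probe for either transgene was used here. Of 41174 gene probes, 24124 were well above background on all 3 arrays of AAV-GFP or of AAV-hGRβ, and they stood for 16696 tested genes. The labels do not say whether replicates were separate animals, so p-values measure the spread between these arrays, which may be technical.

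The glucocorticoid receptor is a nuclear receptor that, in its hormone-binding α form, moves into the nucleus and binds DNA to raise or lower target genes, which in liver include enzymes of gluconeogenesis and amino acid breakdown. The β form arises by alternative splicing of the same human gene, has a different carboxyl end, does not bind the usual hormones and is known mainly as an inhibitor of the α form. AAV, a parvovirus, serves as a gene carrier to liver cells, and its DNA and protein shell can be seen by innate immune sensors. Type I interferons such as interferon β act through their receptor on factors of the STAT and IRF families, which bind the interferon-stimulated response element (ISRE) of antiviral genes.

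Values are log2 signals minus that of each array's 75th percentile, so 0 is that percentile, and differences are AAV-hGRβ minus AAV-GFP on the log2 scale. On these 6 arrays the share of gene spots well above background ran from 59.2% to 82.0%, highest on AAV-hGRβ replicate 1, and 3 arrays per group limit the precision. Correlations were 0.973 to 0.985 within a group and, between the 2 groups, 0.966 to 0.983. The tissue label held: the hepatocyte markers Alb (10.1 to 10.9 with AAV-GFP and 10.1 to 10.4 with AAV-hGRβ), Apoa1 (7.35 to 8.22 over both groups) and Hnf4a (2.82 to 3.28) were well above background on all 6 arrays. AAV-GFP replicate 3 and AAV-hGRβ replicate 1 shared a slide and a second scan day, on which 1 untreated array was also scanned. Differences are therefore also given within scan day 1 (2 arrays against 2) and scan day 2 (1 against 1). On scan day 1, AAV-GFP replicates 1 and 2 were on 1 slide and AAV-hGRβ replicates 2 and 3 on another. Slide and group therefore cannot be told apart within scan day 1.

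With AAV-hGRβ, 140 genes rose and 13 fell (limma, adjusted p under 0.05 over 16696 genes), that is 0.839% and 0.0779% of the genes tested and 0.916% together. The tested probe of 13 rises was on no AAV-GFP array well above background, and that of 2 falls on no AAV-hGRβ array, so no exact size is read from these. The other 127 rises ran from 1.03 to 4.24, with a median of 1.82, and 49 of them exceeded 2. The other 11 falls ran from -1.79 to -0.86. All 153 genes had groups that did not overlap, which was also true of 9.47% of all genes upwards and of 6.34% downwards. Groups that do not overlap must have the same sign on both scan days, so the sign by day adds nothing for these 153. The median differences of the 140 rises were 1.90 on day 1 and 1.80 on day 2. AAV-hGRβ replicate 3 was the highest of its group for 105 of the 140 rises, and replicate 2 for 12. The untreated arrays all lay below all AAV-hGRβ arrays for 138 of the 140 rises and above them for all 13 falls, so the levels of untreated livers sat on the side of AAV-GFP.

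Calls depended on the array set and on the treatment of slides. Without AAV-GFP replicate 1 the count was 40 genes, without AAV-hGRβ replicate 1 it was 47, without AAV-hGRβ replicate 3 it was 47, and without AAV-GFP replicate 2 it was 100. With slide as a random block 74 of the 153 passed (71 higher, 3 lower). With only the 6 arrays compared the count was 77, under normexp background correction 20 and on scan day 1 alone 3. A set of 33 genes (31 higher, 2 lower) passed in all 6 fits that left out an array and with slide as a random block, among them Ifnb1, Irf7, Ifi44, Oas1a, Usp18, Gbp3, Ly6a, Cbr3, Phlda3, Cd8a and Polr3g. Under normexp correction Ifnb1 (-0.19), Oas1b (-0.75), Slfn4 (-0.18) and Fanci (-0.18) of this set lay below 0, while its other members kept their direction. Direction does not mean size: Sct went from 2.05 to 0.063 and the signal difference of Cd8a from 4.36 to 0.39. Others kept their size, such as Irf7 (2.65 and 2.72). Differences also moved with signal level over all genes tested. Of 3046 genes whose mean level was below -3, 80.6% lay above 0 with a median of 0.47, while of 3160 genes with a level above 3, 34.2% lay above 0 with a median of -0.09. Part of the first set passed the filter only through AAV-hGRβ, but among genes well above background on all 6 arrays the median at that low level was still 0.32. The part of this trend in any list below was not tested.

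**Figure D1:**
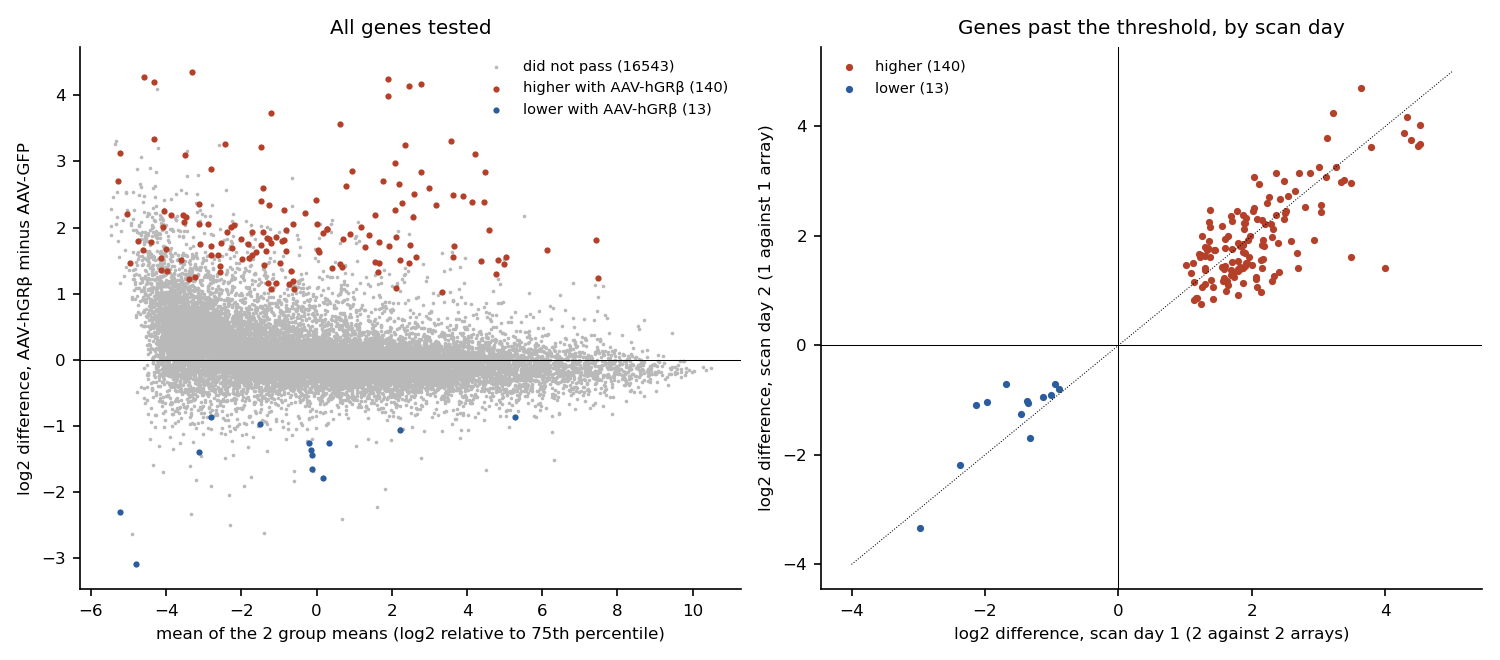
Left, the log2 difference (AAV-hGRβ minus AAV-GFP) of all 16696 genes against the mean of the 2 group means, with 140 genes past the threshold above 0 and 13 below. Right, for those 153 genes, the difference on scan day 2 (1 array against 1) against scan day 1 (2 against 2). Points lie around the dotted line of equal values, and the same sign on both days follows from groups that do not overlap.

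Interferon β and its transcription factor IRF7 rose together. Ifnb1, the gene of interferon β, stood at -6.62, -7.01 and -6.54 on the 3 AAV-GFP arrays and at -2.37, -2.38 and -2.61 on the 3 AAV-hGRβ arrays. On no AAV-GFP or untreated array was it well above background, and it was so on all 3 AAV-hGRβ arrays, which gives at least 5.12-fold. The adjusted p of 0.000634 (limma), the smallest of the comparison, belongs to the difference in signal and not to this bound. It rests on AAV-GFP signals that were not well above background. Irf7, a factor that drives type I interferon transcription, was at 1.00, 1.13 and 0.46 with AAV-GFP and at 3.46, 3.26 and 3.82 with AAV-hGRβ, a difference of 2.65 (SE 0.23, adjusted p = 0.00294). Untreated livers had 0.38, 0.33 and 0.19 for Irf7, below every AAV-GFP array. Usp18, a protease that removes ISG15 and damps interferon receptor signalling, moved from 1.48 ± 0.35 (SD, n = 3) to 3.64 ± 0.15 (difference 2.16, adjusted p = 0.00629). Ifnb1 and Usp18 were the 2 of 14 tested interferon ligands, receptors and regulators that rose (median of the list 0.44, against 0.03 over all genes). Ifng, the gene of interferon γ, did not pass, at -4.04, -3.80 and -3.25 with AAV-GFP and -2.25, -2.79 and -1.51 with AAV-hGRβ (difference 1.51, adjusted p = 0.345). Irf7 was the single call among 15 STAT and IRF factors. On normexp background correction Ifnb1 stood at -0.19, and at 1.02 when bright local backgrounds were replaced before it.

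**Figure D2:**
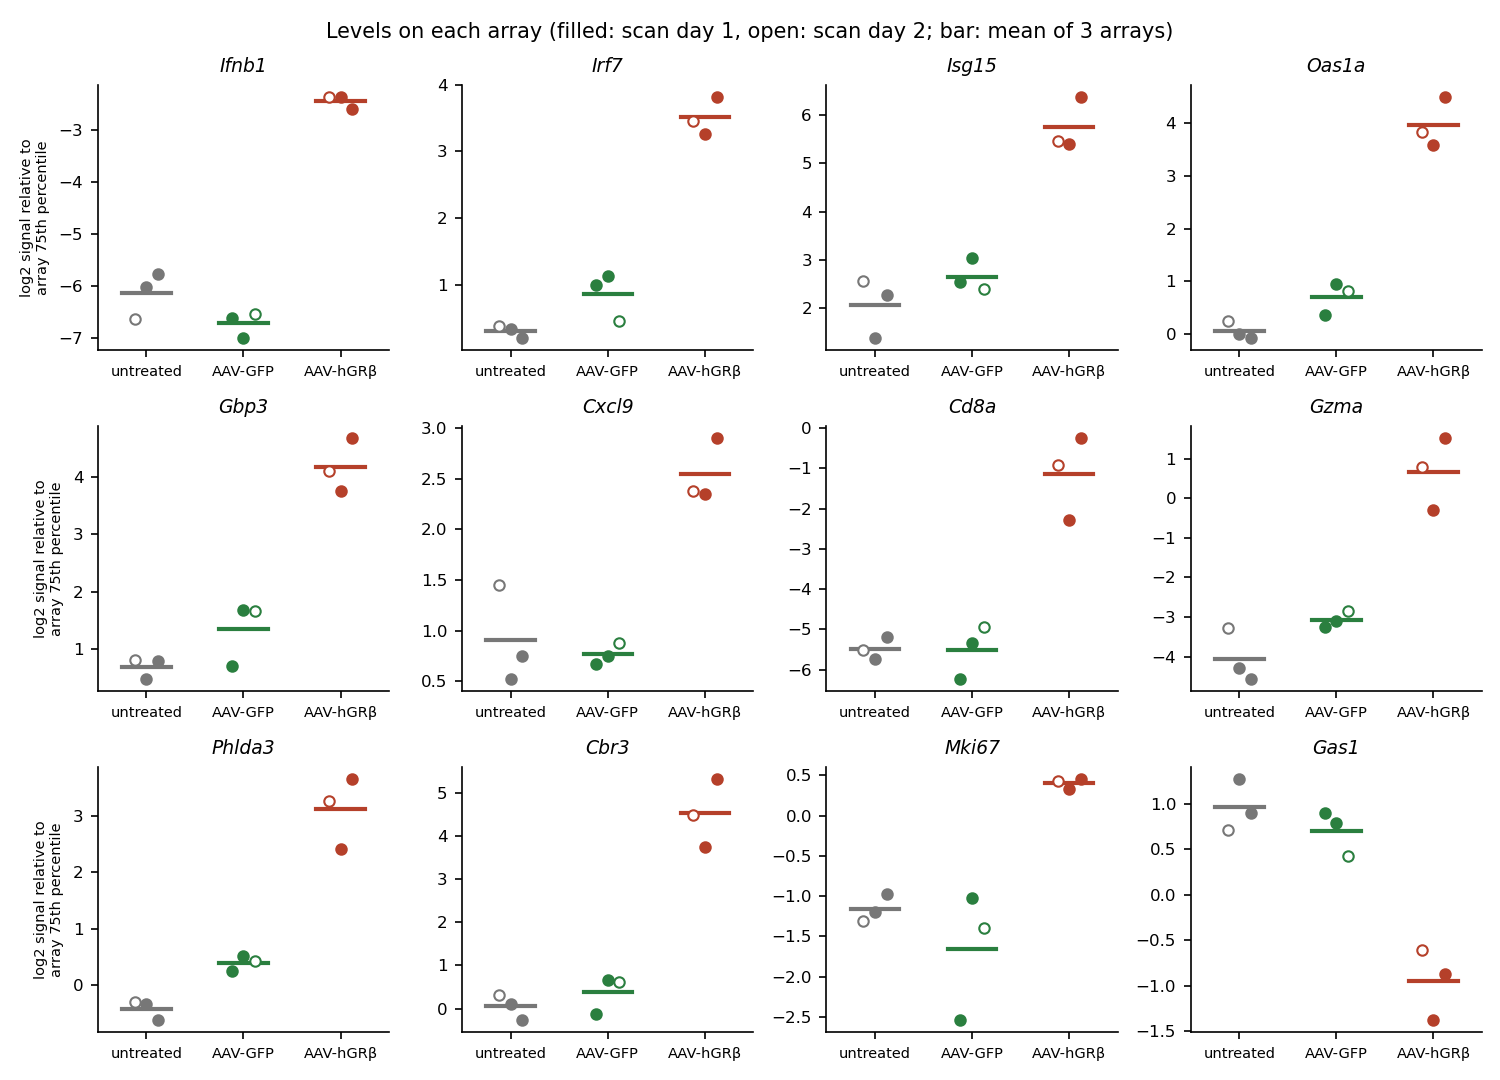
Level of 12 genes on each array (log2, set against the 75th percentile of the array) in untreated, AAV-GFP and AAV-hGRβ livers, with a point per array, filled for scan day 1 and open for scan day 2, and a bar at the mean of 3 arrays. AAV-hGRβ arrays lie above all other arrays in 11 panels and below them for Gas1. The untreated points lie below all AAV-GFP points for Irf7, Oas1a, Gzma and Phlda3, and overlap with them in the other panels.

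Promoters of the genes that rose held the letters of the interferon element more often than promoters of other genes. RefSeq promoters (assembly GRCm38.p6, 250 bases before to 50 after the start) were found for 99 of the 140 genes, and 26 of them (26.3%) held GAAA, 2 bases of any kind and GAAA again on either strand, the core of the ISRE, against 3.83% of the 11214 tested genes with a promoter and 3.44% of all promoters of that length. Among the called members of the oligoadenylate synthetase, antiviral and GTPase lists it was 11 of 18 (61.1%). The windows below are shown because these 5 interferon-induced genes all rose and hold at least 2 overlapping or nearby matches, and because Ifnb1, which holds none, has 2 matches to GGGA, 4 bases of any kind and CC, the letters of a κB site on either strand. Each runs 5′ to 3′ along the gene, with every match in capitals, and ends at or before the start site.
Isg15, chr4:156200845-156200926, minus strand: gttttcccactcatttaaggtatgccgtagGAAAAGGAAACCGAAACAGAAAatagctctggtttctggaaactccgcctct
Oas1a, chr5:120907526-120907575, minus strand: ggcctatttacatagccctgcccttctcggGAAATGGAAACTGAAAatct
Ifit1, chr19:34640755-34640843, plus strand: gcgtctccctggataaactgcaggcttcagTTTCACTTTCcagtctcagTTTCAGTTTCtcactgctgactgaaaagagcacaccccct
Ifit3, chr19:34583343-34583446, plus strand: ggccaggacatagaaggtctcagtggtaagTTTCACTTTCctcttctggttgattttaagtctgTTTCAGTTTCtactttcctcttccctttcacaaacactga
Gbp3, chr3:142559969-142560043, plus strand: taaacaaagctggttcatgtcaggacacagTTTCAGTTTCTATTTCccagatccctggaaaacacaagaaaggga
Ifnb1, chr4:88522848-88522940, minus strand: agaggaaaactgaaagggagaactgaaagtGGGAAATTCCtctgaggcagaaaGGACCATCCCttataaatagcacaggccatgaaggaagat
The match nearest the start site ended 56 bases before it in Isg15, 4 in Oas1a, 75 in Ifit1, 112 in Ifit3 and 29 in Gbp3. The κB letters are common, being in 32.3% of promoters of the genes that rose and 28.9% of those tested. The letters of the glucocorticoid response element (ACA, 3 bases of any kind and TGT, with G 2 bases before and C 2 bases after, either strand) were in 0 of the 99 promoters of genes that rose, 0 of 8 of genes that fell and 0.446% of those tested. A match of letters is a description of the sequence and not a binding site.

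Oligoadenylate synthetases, enzymes that make short adenylate chains when they meet double-stranded RNA, were the list with the largest share of calls. Of 10 members tested, 7 rose and all 10 lay above 0, with a median of 1.92 (1.83 with Oas1b at its bound, and 2.09 on day 1 and 2.11 on day 2). Oas1a stood at 0.37, 0.95 and 0.81 with AAV-GFP and at 3.83, 3.58 and 4.50 with AAV-hGRβ, a difference of 3.25 (SE 0.27, adjusted p = 0.00294). Its lowest AAV-hGRβ array lay above its highest AAV-GFP array by far more than the spread within either group. Oasl2 went from -1.16 ± 0.36 to 2.41 ± 0.74 (difference 3.56), and Oas1f from 1.91 ± 0.47 to 5.22 ± 0.38 (difference 3.31). Oas1c, Oas2 and Oasl1 rose by 1.98, 1.81 and 1.74. Oas1b, on no AAV-GFP array well above background, was higher by at least 1.83-fold. Oas1e (1.39, adjusted p = 0.0547) and Oas3 (1.86, adjusted p = 0.126) did not pass. All 7 calls passed with slide as a random block. The Oas1 genes are close copies of each other, so a probe of one may also read another.

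Antiviral effectors gave the largest number of calls of any list, 13 of 32 higher and 0 lower, with a median of 1.22 and 30 members above 0. Isg15, a ubiquitin-like protein that is joined to other proteins during infection, stood at 2.54, 3.03 and 2.38 with AAV-GFP and 5.46, 5.41 and 6.39 with AAV-hGRβ (difference 3.11, SE 0.37, adjusted p = 0.00896). Herc6, the ligase of ISG15 in mice, rose by 1.97, although its other probe gave 0.63. Uba7, the enzyme that activates ISG15 for this joining, is outside the list and not among the 13 calls, and rose by 1.46. Ifit1 and Ifit3, which bind viral RNA and act in one complex, rose by 2.37 and 2.47, and their neighbour Ifit2 by 1.53. Rsad2 (viperin), a radical enzyme that makes a chain-terminating nucleotide, rose by 1.86, and Cmpk2, the kinase encoded beside it, by 1.71. Further rises were those of Ifi44 (4.24), Trim30a (1.82), Rtp4 (1.52), the membrane tether Bst2 (1.24), Mx2 (1.48) and Parp14 (1.03). Uba7, Ifit2, Cmpk2, Mx2 and Parp14 were named here after their values were seen. Ifi44 is read by 2 probes, which gave 2.12 and 4.24. With slide as a random block 5 of the 13 calls passed, Isg15, Ifit1, Ifi44, Herc6 and Rtp4.

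Interferon-induced GTPases, which attack the membranes that surround microbes in a cell, had 6 of 15 higher and all 15 above 0, with a median of 1.18. Gbp3, a guanylate-binding protein, stood at 0.70, 1.69 and 1.66 with AAV-GFP and at 4.10, 3.77 and 4.69 with AAV-hGRβ (difference 2.84, SE 0.32, adjusted p = 0.00766). The groups were apart by more than the range of AAV-GFP, whose replicate 1 was the lowest. Gbp6 rose by 2.20, Gbp9 by 1.79 (1.18 on its other probe) and Gbp7 by 1.35, the very large GTPase Gvin1 by 2.60, and Tgtp1, a T cell specific GTPase, by 2.26, though its second probe gave 1.06. Of these, Gbp3, Gvin1 and Tgtp1 passed with slide as a random block. Irgm1 (1.16, adjusted p = 0.0537) and Igtp (1.53, adjusted p = 0.0661) did not pass.

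Among 18 tested sensors of nucleic acid, 2 rose, and the median was 0.60. Zbp1, which binds Z-form DNA and RNA and can start necroptosis, stood at 1.46, 1.31 and 1.27 with AAV-GFP and at 3.95, 3.60 and 4.01 with AAV-hGRβ (difference 2.50, adjusted p = 0.00409). Dhx58, which tunes the RIG-I-like receptors, rose by 1.72 (adjusted p = 0.0143). Mlkl, the pore-forming protein of necroptosis, was higher on every AAV-hGRβ array (2.39, 2.30 and 2.46) than on every AAV-GFP array (0.63, 0.97 and 1.16), a difference of 1.47. Tlr2, a surface receptor for bacterial lipoproteins and viral shells named after its values were seen, rose by 1.45 (adjusted p = 0.0304), a call lost under a random slide block. Ifih1 (1.57, adjusted p = 0.0749), the RNA sensor MDA5, and Ifi204 (1.38, adjusted p = 0.0677) did not pass.

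LY6 surface proteins and Schlafen proteins, 2 families of interferon-responsive genes that each lie in a gene cluster, had 6 of 11 higher and all 11 above 0, with a median of 1.83 (1.62 with 2 dim members at their bounds). Ly6d was at 0.57, 0.64 and 0.82 with AAV-GFP and at 4.58, 3.74 and 6.25 with AAV-hGRβ (difference 4.18, SE 0.52, adjusted p = 0.0101), so its AAV-hGRβ arrays spread widely but stayed above the others. Ly6a, known as stem cell antigen Sca-1, moved from -0.08 ± 0.70 to 3.90 ± 0.47 (difference 3.99) and Ly6c1 from 3.06 ± 0.27 to 5.90 ± 0.44 (difference 2.85). Ly6i rose by 1.08 and Slfn9 by 1.83. Slfn4, a Schlafen gene of myeloid cells, was on no AAV-GFP array well above background and was higher by at least 6.02-fold. Neighbouring genes often rose together: 22 of 135 called genes with a place in the RefSeq gene order (16.3%) had a called gene next to them among tested genes, against 1.93% of all 13645. The 12 pairs were all higher and included Ly6a with Ly6i and with Ly6c1, Ifit2 with Ifit3, Rsad2 with Cmpk2, Gbp7 with Gbp3, Oasl2 with Oasl1 and Oas1f with Oas1a and Oas1c. Most of these neighbours are copies of each other, so shared probe signal may add to this count, and its part was not tested.

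In the list of MHC class I genes and immunoproteasome subunits all 16 tested members lay above 0, with a median of 0.50, but only H2-T22, a non-classical class I molecule, passed (4.09, 4.09 and 4.17 against 5.23, 5.35 and 5.67, adjusted p = 0.0285). The immunoproteasome subunits Psmb8 (1.15, adjusted p = 0.0638) and Psmb9 (1.22, adjusted p = 0.0786) did not pass. None of 10 MHC class II genes passed (limma), with a median of 0.36 that fell to -0.01 when arrays were scaled to their medians, a scaling that moved the median of all genes to -0.33. Ubd, a ubiquitin-like protein of antigen-presenting cells encoded in the MHC, rose from -0.48 ± 0.64 to 2.38 ± 0.52 (adjusted p = 0.0285). Cd274, the gene of the T cell inhibitor PD-L1, rose by 1.19 (adjusted p = 0.0391) and was named after its values were seen. H2-T22, Ubd and Cd274 all lost their calls under a random slide block.

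Of 35 T and NK cell genes 6 rose, most of them genes of cytotoxic cells, and the list had a median of 1.25, 1.36 on day 1 and 0.72 on day 2. In bulk liver more cells of a type and more RNA per cell cannot be told apart. Cd8a, part of the CD8 coreceptor, stood at -6.24, -5.33 and -4.94 with AAV-GFP, not well above background on any of these arrays. With AAV-hGRβ it stood at -0.91, -2.29 and -0.24, at least 12.7-fold higher on this probe. The adjusted p of 0.00828 (limma) belongs to the difference in signal and not to this bound. The signal differences of the 3 Cd8a probes ran from 2.68 to 4.36, so the bound holds for the tested probe only. Under normexp correction Cd8a stood at 0.39, and at 1.65 when bright local backgrounds were replaced before it. Gzma, a granzyme of killer cells, was at -3.25, -3.11 and -2.84 and at 0.77, -0.31 and 1.53 (difference 3.73, SE 0.47, adjusted p = 0.0107). AAV-hGRβ replicate 2 was the lowest and replicate 3 the highest of its group for both. Gzmb rose by 2.35, Nkg7, a protein of cytotoxic granules, by 2.22, Ccl5 by 2.97 and Cd6 by 1.14, although the other probe of Cd6 gave 0.21. Of the 6 only Cd8a and Gzma passed with slide as a random block. Cd244a, a receptor of NK and CD8 T cells that is outside the list and was named after its values were seen, rose by 2.36 and lost its call under that block. The NK cell receptors Ncr1 (1.58, adjusted p = 0.576), Klrk1 (1.40, adjusted p = 0.323) and Klrb1c (0.58, adjusted p = 0.687) did not pass. The other chain of the coreceptor, Cd8b1, differed by 0.01 (0.03, -0.50 and -1.05 against -0.23, -0.67 and -0.58) and Cd3e by 0.03 (-0.67, -0.59 and -2.13 against -1.94, -0.57 and -0.80). Cd3d (1.88, adjusted p = 0.209) and Cd4 (0.69, adjusted p = 0.107) also did not pass.

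**Figure D3:**
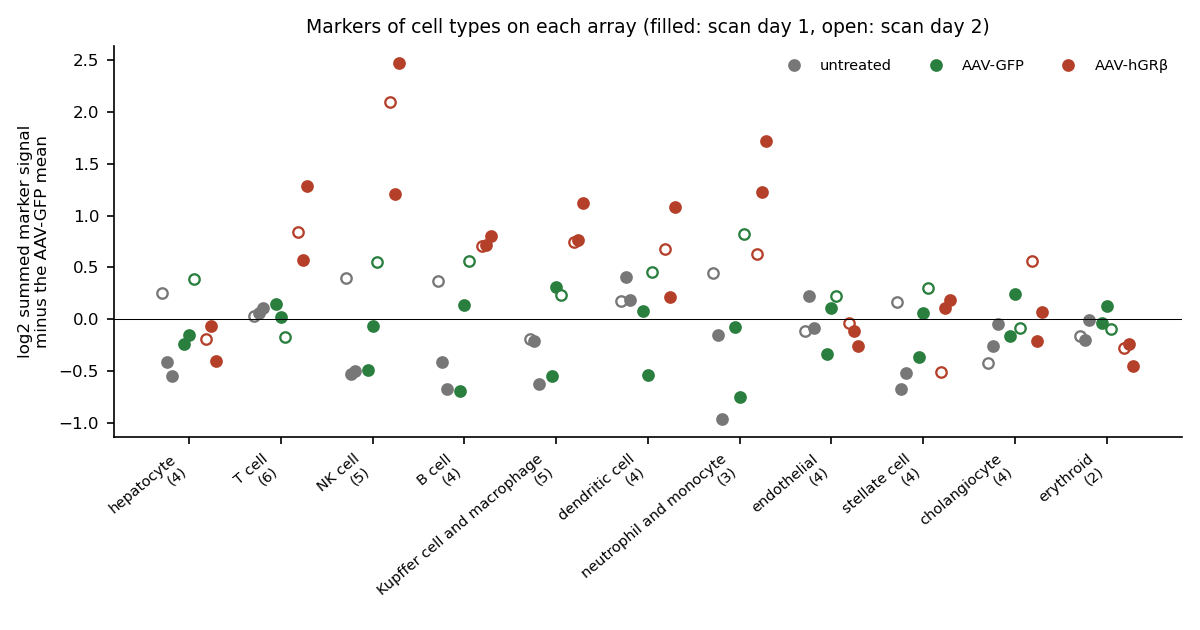
Summed signal of markers of 11 cell types on each array, as log2 minus the mean of the AAV-GFP arrays, with the number of markers in the sum under each name and points filled for scan day 1 and open for scan day 2. The AAV-hGRβ points lie above all AAV-GFP points for T cell, NK cell, B cell, and Kupffer cell and macrophage markers, lie below them for erythroid markers, and overlap with them for dendritic cell, neutrophil and monocyte, hepatocyte and stellate cell markers. Most of the NK cell sum comes from Nkg7.

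Sums over marker lists placed the AAV-hGRβ arrays above the AAV-GFP arrays for several leukocyte types. The summed log2 signal of 6 T cell markers was 0.73 to 1.04 with AAV-GFP and 1.47 to 2.19 with AAV-hGRβ, and that of 5 NK cell markers was -1.27 to -0.23 and 0.42 to 1.69. Cd8a, on no AAV-GFP array well above background, was the only T cell marker that passed. Cd3d (1.88), Cd3g (1.33) and Cd4 (0.69) did not pass, and Cd3e and Cd8b1 differed by 0.03 and 0.01. Of the NK cell markers Klrk1 and Eomes were on no AAV-GFP array well above background. Nkg7, a called gene of the T and NK cell list, gave most of the NK cell sum on each of these arrays (0.89, 0.05 and 1.49 with AAV-hGRβ). Ncr1, Klrk1 and Klrb1c did not pass, and Eomes was not tested. For 5 Kupffer cell and macrophage markers the ranges were 6.13 to 6.99 and 7.42 to 7.79, and for 4 B cell markers -0.20 to 1.05 and 1.20 to 1.30. No single marker of either type passed. The sums of 4 dendritic cell markers (-1.998 to -1.002 and -1.24 to -0.38), 3 neutrophil and monocyte markers (1.75 to 3.32 and 3.13 to 4.21) and 4 hepatocyte markers (10.5 to 11.1 and 10.4 to 10.7) overlapped between the groups. The erythroid marker Alas2, an enzyme of haem synthesis, was at 5.06, 5.23 and 5.003 with AAV-GFP and at 4.83, 4.87 and 4.65 with AAV-hGRβ. Its groups did not overlap, as was true of 6.34% of all genes downwards, and its difference of -0.32 did not pass (limma, adjusted p = 0.478). The part of these markers in the gene differences was not tested.

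Single myeloid genes and 5 chemokines rose. Mpeg1, a pore-forming protein of macrophages, stood at 4.09, 4.25 and 4.42 with AAV-GFP and at 5.70, 5.69 and 6.03 with AAV-hGRβ (difference 1.56, SE 0.17, adjusted p = 0.00629), the single call among 19 Kupffer cell and macrophage genes (median 0.59). Siglec1, an interferon-induced lectin of macrophages named after its values were seen, rose by 1.74. The dendritic cell list had 2 of 11 higher, Ly6d and Bst2, both also in lists above. Its median was 1.03, or 0.90 with 1 dim member at its bound. The neutrophil and monocyte list had 1 of 12 higher (Ly6c1, median 1.28) and the B and plasma cell list 0 of 10 (median 0.64). By day the 3 medians were 1.30, 1.64 and 0.82 on day 1 but 0.24, 0.52 and 0.23 on day 2. These medians and that of the T and NK cell list lay below 0 under normexp correction. Chemokines had 5 of 23 higher, with a median of 0.77. Cxcl9 and Cxcl10, which draw T cells through CXCR3, stood at 0.67, 0.75 and 0.88 against 2.38, 2.35 and 2.91 and at 0.30, 0.83 and 0.19 against 2.45, 1.92 and 2.61 (differences 1.78 and 1.89). Ccl4 and Ccl5, which draw T cells and monocytes, rose by 3.21 and 2.97, and Ccl7, a ligand of CCR2, by 1.69, with 3.01 on its other probe. Ccl3, a chemokine of macrophages, was on no AAV-GFP array well above background and did not pass (adjusted p = 0.0973), nor did the receptor Ccr2 (1.47, adjusted p = 0.105). Of the 5 calls Ccl4, Cxcl9 and Cxcl10 passed with slide as a random block.

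In the list of tumour necrosis factor and NF-κB response genes 3 of 27 rose, with a median of 0.50, and 0.76 on day 1 against 0.10 on day 2. They were Mlkl, described above, Traf1, an adaptor of TNF receptors (-2.65, -2.63 and -2.21 against -0.96, -1.27 and -0.54, difference 1.58), and Tnf itself (-4.69, -4.98 and -5.07 against -3.16, -3.91 and -3.06, difference 1.54). Tnf was well above background on 1 of 3 AAV-GFP arrays and on all 3 AAV-hGRβ arrays, and its difference was -0.69 under normexp correction. Traf1 and Tnf lost their calls under a random slide block.

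Of 31 tested p53 targets 5 rose, and the transcript of p53 itself did not pass the test. Phlda3, which blocks AKT at the membrane, stood at 0.26, 0.52 and 0.43 with AAV-GFP and at 3.26, 2.42 and 3.66 with AAV-hGRβ (difference 2.71, SE 0.29, adjusted p = 0.00629). Cdkn1a, the cell cycle inhibitor p21, was at -3.11, -2.17 and -2.78 and at -0.06, -0.98 and 0.20 (difference 2.40, SE 0.39, adjusted p = 0.0303). Eda2r, a receptor of the TNF receptor family, rose by 2.88, the spindle protein Psrc1 by 3.26 (1.94 on the lowest of its 3 probes) and Ddit4l, an inhibitor of mTOR signalling, by 2.05 (its probes ran from 1.21 to 2.15). The list had a median of 0.71 (0.78 on day 1 and 0.57 on day 2), and Phlda3 and Psrc1 passed with slide as a random block. Trp53 differed by 0.08 (SE 0.24, adjusted p = 0.95), and Tnfrsf10b (1.68, adjusted p = 0.0766) and Ccng1 (1.25, adjusted p = 0.0768) did not pass.

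In the list of mitosis genes all 29 tested members lay above 0, with a median of 1.77 (1.63 on day 1 and 1.77 on day 2). All AAV-hGRβ arrays lay above all AAV-GFP arrays for 23 members, as they did for 9.47% of all genes tested. Past the threshold 8 rose (27.6%), against 0.839% of all genes tested. Mki67, a marker of dividing cells, stood at -2.54, -1.02 and -1.39 with AAV-GFP and at 0.43, 0.33 and 0.46 with AAV-hGRβ (difference 2.06, SE 0.34, adjusted p = 0.0328), with most of the spread in AAV-GFP. The kinetochore protein Nuf2 rose by 2.00, the kinesin Kif20a by 1.92, the spindle protein Prc1 by 1.76, Ccna2 (cyclin A2) by 1.64, the kinase Aurka by 1.64, the checkpoint kinase Bub1b by 1.34 and Ccnb1 (cyclin B1) by 1.23 (3.11 on its other probe). The kinases Cdk1 (2.21, adjusted p = 0.0537) and Plk1 (2.09, adjusted p = 0.0739) did not pass. The list is dim, with a median level of -1.88 and 9 members below -3, and its 20 members well above background on all 6 arrays had a median of 1.74. Genes of DNA replication had 1 of 32 higher and a median of 0.45: Uhrf1, which keeps DNA methylation through replication, rose by 1.59. Of the 9 calls in the cell cycle lists, Bub1b alone passed with slide as a random block, and under normexp correction Bub1b, Ccnb1 and Uhrf1 lay below 0.

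**Figure D4:**
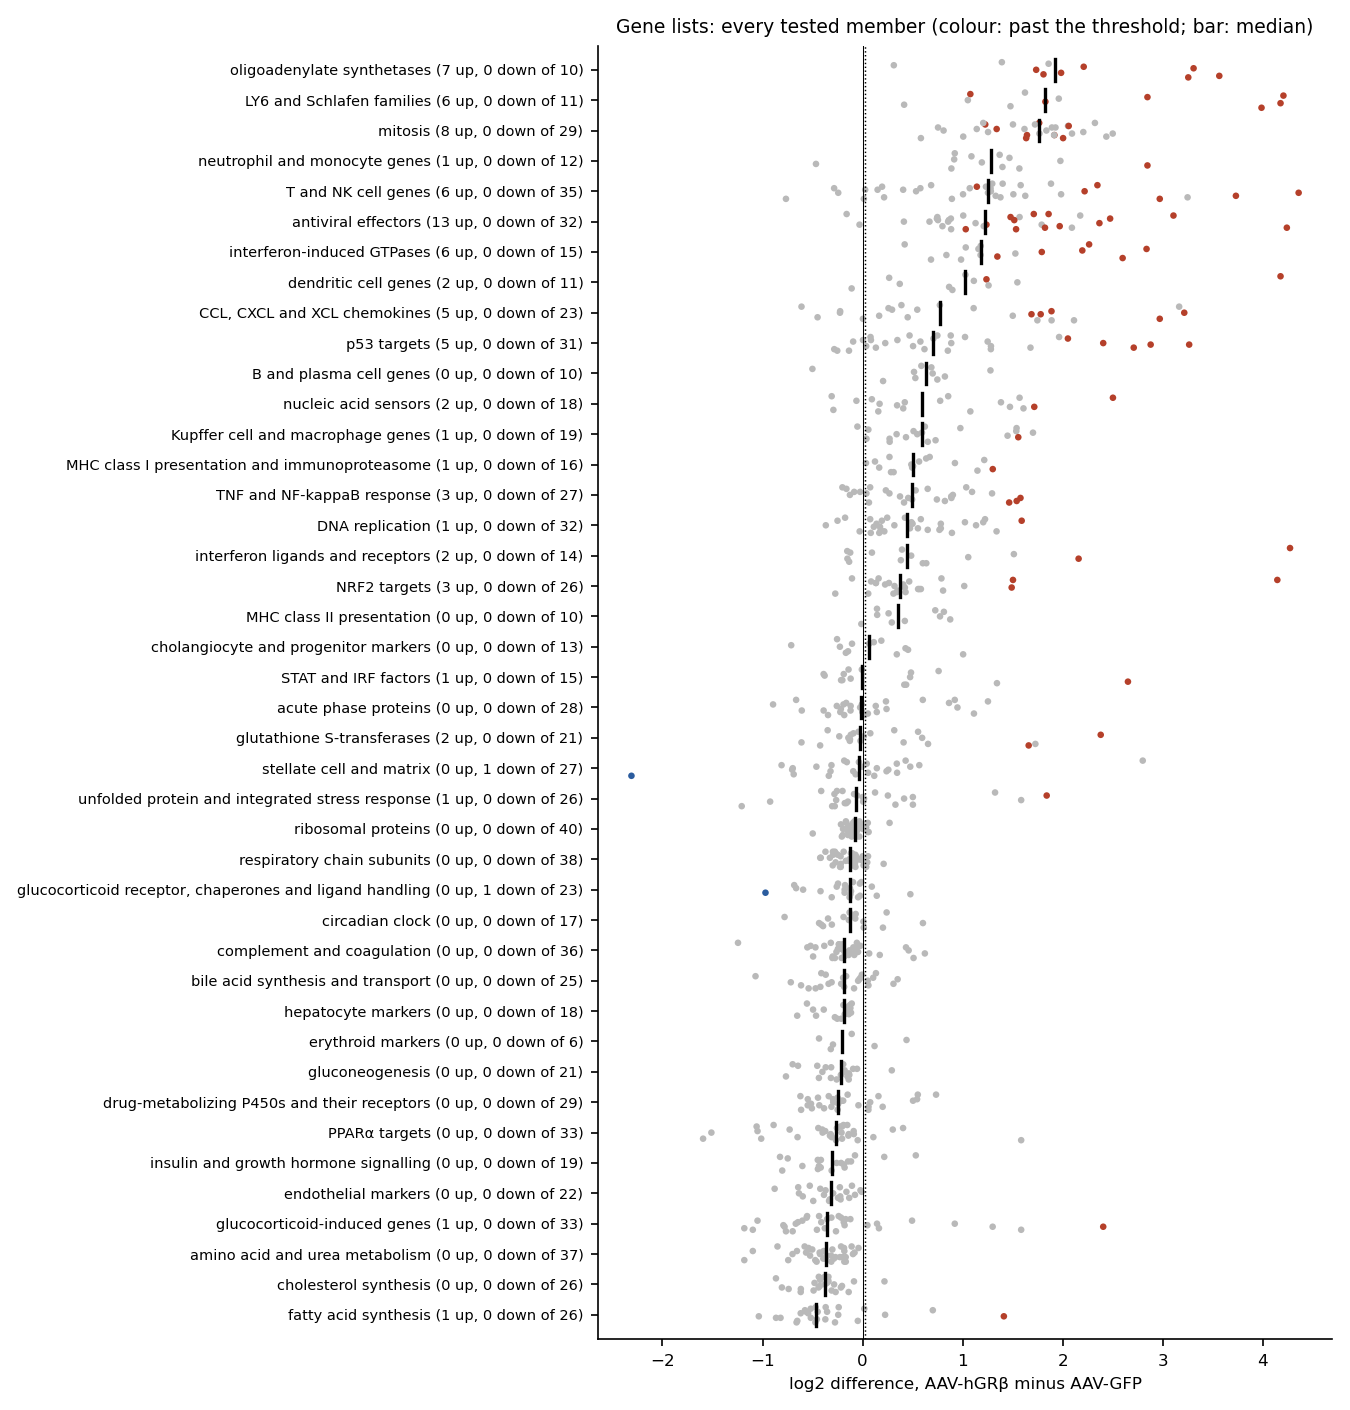
Log2 difference (AAV-hGRβ minus AAV-GFP) of every tested member of 42 gene lists, ordered by the list median (black bar), with members past the threshold in red (higher) or blue (lower) and the counts beside each name. The oligoadenylate synthetase, LY6 and Schlafen, and mitosis lists have the highest medians (1.92, 1.83 and 1.77), and metabolic lists lie at the bottom with medians between -0.46 and -0.18.

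Enzymes of the oxidative and electrophile response rose in part. Cbr3, a carbonyl reductase controlled by NRF2, stood at -0.12, 0.65 and 0.62 with AAV-GFP and at 4.49, 3.76 and 5.34 with AAV-hGRβ (difference 4.14, SE 0.39, adjusted p = 0.00394), and the untreated arrays were at 0.30, 0.11 and -0.27. Nqo1, a quinone reductase, was at 0.92, 1.57 and 1.94 and at 2.87, 3.00 and 3.08 (difference 1.50), and Srxn1, sulfiredoxin, rose by 1.49. These were the 3 calls among 26 NRF2 targets, whose median was 0.38. The glutathione transferases Gsta2 and Gsta1, adjacent genes with near-identical sequence whose probes may cross-read, rose by 2.38 and 1.66, the 2 calls among 21 members of that family. Cbr3, Srxn1 and Gsta2 passed with slide as a random block. In the list of stress response genes 1 of 26 rose, Atf3, a transcription factor induced by many stresses (-2.41, -2.09 and -2.23 against -0.62, -0.68 and 0.10, difference 1.84), which lost its call under a random slide block.

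Some of the largest rises belonged to no list. Ifi27l2b, an interferon-induced membrane protein, stood at 2.19, 1.95 and 1.85 with AAV-GFP and 4.44, 4.08 and 4.51 with AAV-hGRβ (difference 2.35, adjusted p = 0.00294). Spats2l, a nucleolar stress protein, rose by 2.60 (1.22 on its other probe), Cplane1, a gene of cilium assembly, by 2.62 (1.53 on its other probe) and the myeloid receptor Sirpb1a by 2.26. The glutamate receptor subunit Gria3 rose by 2.26, from a probe well above background on 1 of 3 AAV-GFP arrays. Wfikkn2, an inhibitor of growth differentiation factors, and the anion exchanger Slc26a7 also rose, but their tested probes were on no AAV-GFP array well above background, so no size is given. Gria3, Wfikkn2 and Slc26a7 lay below 0 under normexp correction.

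The 11 falls measured on both sides had a median of -1.26, and 3 of the 13 falls carried only an identifier. Polr3g, a subunit of RNA polymerase III, stood at 0.47, 0.60 and 0.70 with AAV-GFP and at -0.98, -0.61 and -0.96 with AAV-hGRβ, a fall of 1.44 on the log2 scale (SE 0.17, adjusted p = 0.0079). Gas1, a membrane protein of growth arrest and hedgehog signalling, was at 0.90, 0.79 and 0.42 and at -0.60, -1.38 and -0.88 (difference -1.66, adjusted p = 0.0229). Untreated livers lay with AAV-GFP for both, at 0.59 to 0.73 for Polr3g and 0.72 to 1.28 for Gas1. Retsat, which saturates retinol and is a highly expressed liver gene, was at 5.60, 5.87 and 5.64 and at 4.84, 4.93 and 4.75 (difference -0.86, adjusted p = 0.0437). Fras1, an extracellular matrix protein, was on no AAV-hGRβ array well above background and was lower by at least 1.82-fold. Icam4 fell by 1.39, Camk2n2, an inhibitor of the kinase CaMKII, by 1.36, Carmil1, a regulator of actin capping, by 1.26, Bag2 by 0.97 and Fam222a by 0.87. Spsb4, an adaptor of a ubiquitin ligase, was at 0.97, 0.97 and 0.94 and at -0.07, -0.21 and -0.60 (adjusted p = 0.0437). Of the named falls, Polr3g and Fras1 kept their call under a random slide block.

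In each of 2 lists of the glucocorticoid system 1 gene passed the test (4.35% and 3.03%), against 0.916% of all genes tested. Under normexp correction the medians of both lists lay above 0 (0.36 and 0.0862). Nr3c1, the mouse receptor, stood at 2.38, 2.35 and 2.57 with AAV-GFP and at 2.25, 2.47 and 2.20 with AAV-hGRβ (difference -0.13, SE 0.16, adjusted p = 0.847), and the groups overlapped. Among 23 genes of the receptor, its chaperones and ligand handling, 1 fell, Bag2, a cochaperone of HSP70, and the median was -0.13. Serpina6, the plasma carrier of corticosteroids (5.56, 5.79 and 5.28 against 5.12, 4.63 and 4.83), and Hsd11b1, the enzyme that regenerates active hormone (7.11, 7.42 and 7.12 against 6.53, 6.80 and 6.53), had groups that did not overlap, with differences of -0.68 and -0.59 that did not pass (adjusted p = 0.201 and 0.263). Such groups apart downwards were found for 6.34% of all genes. Of 33 glucocorticoid-induced genes 1 rose, Cdkn1a, which is also in the p53 list, 0 fell, and 25 lay below 0. Their median was -0.35, with -0.15 on day 1 and -0.97 on day 2, where the AAV-GFP array is replicate 3. On that array Tsc22d3, the glucocorticoid-induced leucine zipper, stood at 4.85 against 2.79 and 3.72 on the other AAV-GFP arrays and 2.55, 2.92 and 3.51 with AAV-hGRβ. Fkbp5, which limits receptor activity, stood at 0.43 there, against -2.52 and -3.44 on the other AAV-GFP arrays and -1.20, -2.30 and -2.40 with AAV-hGRβ. Without AAV-GFP replicate 3 the difference of Fkbp5 was 1.02 in place of -0.12 (adjusted p = 0.976). It was also above 0 without AAV-hGRβ replicate 2 (0.0455) or replicate 3 (0.0964), so its direction is not settled. Per1, a clock gene that glucocorticoids induce, was also highest there (-0.86, -1.56 and -0.04 against -1.20, -2.09 and -1.50), with a difference of -0.78 (adjusted p = 0.77).

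**Figure D5:**
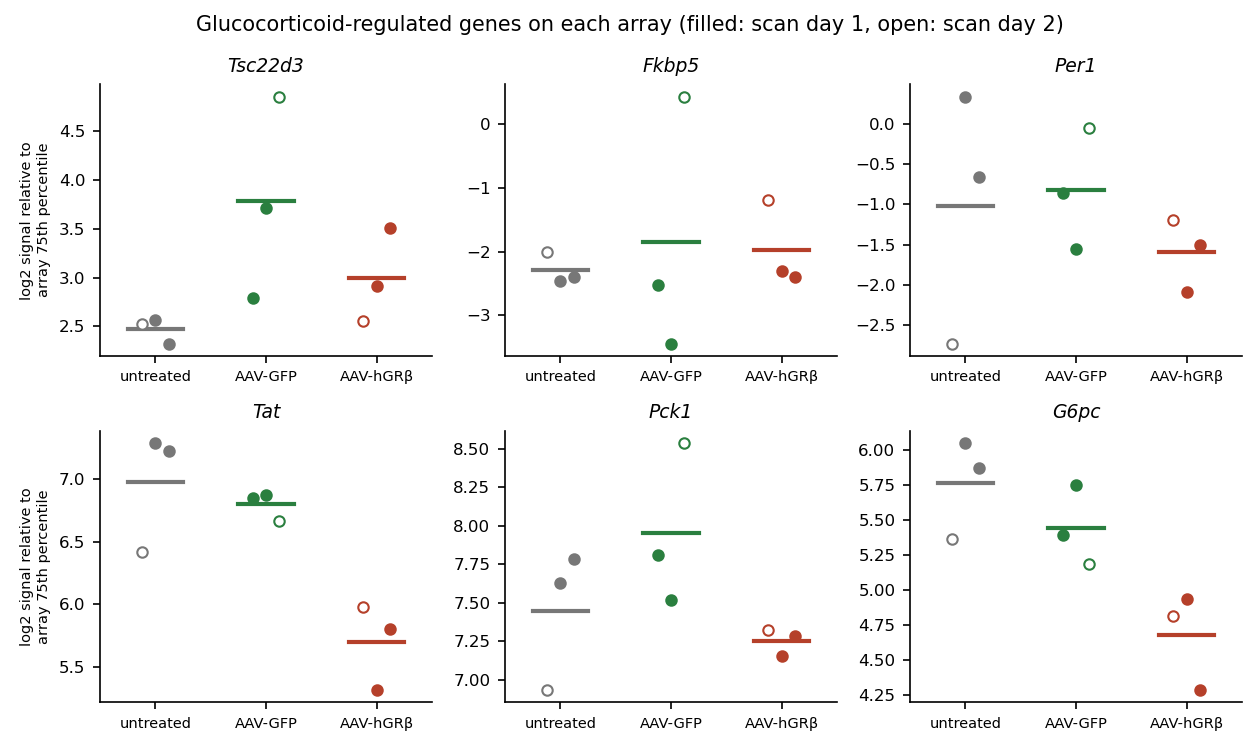
Level of 6 glucocorticoid-regulated genes on each array (log2, set against the 75th percentile of the array), with points filled for scan day 1 and open for scan day 2 and bars at the mean of 3 arrays. The open AAV-GFP point, replicate 3, is the highest of its group for Tsc22d3, Fkbp5, Per1 and Pck1, and the AAV-hGRβ points of Tat and G6pc lie below all AAV-GFP points without passing the threshold.

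Metabolic enzymes of the hepatocyte lay slightly lower without any fall that passed, and their list medians lay above 0 under normexp correction. Of all genes with a level above 3, 34.2% lay above 0. In the list of amino acid and urea metabolism all 37 tested members lay below 0 (median -0.37, -0.36 on day 1 and -0.29 on day 2). Sds, which breaks down serine, stood at 4.86, 4.33 and 4.04 with AAV-GFP and 3.16, 3.29 and 3.23 with AAV-hGRβ (difference -1.18, adjusted p = 0.0598). Tat, tyrosine aminotransferase, was at 6.85, 6.87 and 6.67 and at 5.98, 5.32 and 5.81 (difference -1.10, adjusted p = 0.131). Both have groups that do not overlap, as had 6.34% of all genes downwards, but miss the threshold. The gluconeogenic enzymes Pck1 (7.81, 7.51 and 8.53 against 7.33, 7.15 and 7.28) and G6pc (5.40, 5.75 and 5.19 against 4.82, 4.94 and 4.29) differed by -0.70 and -0.77 (adjusted p = 0.418 and 0.275), with 20 of 21 genes of their list below 0 (median -0.22). Fatty acid synthesis had a median of -0.46, led by Elovl6 (-1.04, adjusted p = 0.114) and the regulator Srebf1 (-0.87, adjusted p = 0.112), and 1 of 26 members rose, the lipase Pnpla5 (1.41, adjusted p = 0.0362). Pnpla5 lost its call under a random slide block and in each of the 6 fits that left out an array, and lay at -0.29 under normexp correction. Cholesterol synthesis stood at -0.38, with 25 of 26 below 0, and PPARα targets at -0.27, with Cyp4a14, a fatty acid hydroxylase, at 6.51, 7.37 and 7.31 against 5.81, 5.03 and 5.81 (difference -1.51, adjusted p = 0.0904).

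Other liver lists held no call. The medians were -0.18 for bile acid genes, -0.25 for drug-metabolizing P450s, -0.18 for complement and coagulation, -0.31 for insulin and growth hormone signalling, -0.31 for endothelial markers (all 22 below 0) and -0.18 for hepatocyte markers (all 18 below 0). Under normexp background correction the medians of these lists and of the metabolic lists above lay above 0. The bile acid, P450, complement and coagulation, and hepatocyte lists are bright, with median levels of 3.95 to 8.33. Genes above a level of 3 had a median of -0.09 and lay below 0 more often than above. Endothelial markers and insulin and growth hormone genes are dimmer, with median levels of 0.67 and 1.67. Genes at a level of 0 to 3 had a median of -0.05, and 41.4% of them lay above 0. Nor did any gene pass among 28 acute phase proteins, 17 clock genes, 38 respiratory chain subunits, 40 ribosomal proteins, 13 cholangiocyte and progenitor markers or 6 erythroid markers (limma). In the list of stellate cell and matrix genes 1 of 27 fell, Fras1, and Mmp13, a collagenase, had a difference of 2.80 that did not pass (adjusted p = 0.0537).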

How the data were processed

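RNA of each liver was labelled with Cy3 and hybridised to a 1-colour Agilent mouse array, per the labels' protocols, and the submitters' processing notes name Agilent Feature Extraction 9.5 for the scans. The deposited array files give processed intensity after the scanner's background and spatial correction, per the file headers, and the deposited series table holds the same values (largest difference 0). Intensity was turned into log2 and each array's 75th percentile over gene probes was subtracted, spots flagged as outliers were left out, spots of a probe were averaged, and the kept probe with the highest mean stood for its gene. Fold bounds marked "at least" compare the brighter group's mean with the detection floor of the dimmer arrays (-5.07 to -4.06). Genes were named through RefSeq (GRCm38.p6): 23082 probes by accession, 6582 by symbol, 3073 by older symbol, 292 by gene identifier, and 8145 kept the name of the file. Groups were compared with limma 3.58.1 (R 4.3.3; lmFit and eBayes, 6 residual degrees of freedom) on all 9 arrays, which share 1 estimate of spread, with Benjamini-Hochberg adjustment over all genes. The fit was tested on simulated data. Figures were drawn in Python 3.11.15. Named genes were the 40 largest rises and all falls with a gene name, up to 8 passing members per list by smallest p, up to 3 that missed where few passed, and a short set of genes of interest. Members and lists were chosen with earlier results of these data known. The alternatives covered scaling, background correction, dim probes, scan day, slide, replicate number and each array left out. Some items are not reported here.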

Additional observations from a re-analysis of the deposited data

How the results depend on the processing

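The count of 153 genes (140 higher, 13 lower) stayed within 1.5 times under the deposited series table, the filters over 3 groups and over all 6 arrays, every kept probe, and normexp with bright local backgrounds replaced (154). It was 105 under median scaling (86 higher, 19 lower), which moved the median of all genes to -0.33, and 105 under quantile normalization (97 higher, 8 lower). It was 20 under normexp (20 higher, 0 lower), 29 without a filter on dim probes (28 and 1), 77 with only the 6 arrays (73 and 4), 256 with scan day as a block (238 and 18) and 3 on scan day 1 alone (3 and 0). Slide as a random block (consensus correlation 0.464) gave 74 (71 and 3). Slide as a fixed block gave 0 by limma (0 and 0), with 1942 genes at an unadjusted p under 0.05, and rests on the slide shared by AAV-GFP replicate 3 and AAV-hGRβ replicate 1. Leaving out an array gave 40 to 175 genes, 38 to 161 higher and 2 to 14 lower. The replicate block gave 2 genes (2 higher, 0 lower) with 2 residual degrees of freedom; same-numbered arrays correlated in their deviations at 0.02, 0.24 and 0.01, and not every array correlated best with its own number, so the samples share only a number and pairing was not used.

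The called genes that an alternative tested kept their direction under every one other than normexp (127 of the 153 were tested under the filter over all 6 arrays, and so are not all covered there). For scan day 1 alone and for each array left out, this follows from groups that did not overlap. Under normexp 32 rises lay below 0, 22 of them not well above background on all AAV-GFP arrays. Under normexp the differences were Ifnb1 -0.19, Oas1b -0.75, Slfn4 -0.18, Tnf -0.69, Bub1b -0.66, Ccnb1 -0.45, Uhrf1 -0.0445, Gria3 -0.40, Wfikkn2 -0.28, Slc26a7 -0.54, Pnpla5 -0.29, Aunip -0.29, Dscc1 -0.17, Egr2 -0.31, Fanca -0.31, Fanci -0.18 and Fignl1 -0.23. Among genes that did not pass they were Ccr2 -0.0142, Cd3e -0.36, Cd4 -0.54, Cd8b1 -0.35, Ifng -0.18, Oas1e -0.23, Oas3 -0.24, Tnfrsf10b -0.58, Trp53 -0.0682, Hsd11b1 0.16, Nr3c1 0.39, Pck1 0.0862 and Serpina6 0.0528. List medians under normexp were -0.0783 for T and NK cell genes, -0.16 for B and plasma cell genes, -0.48 for dendritic cell genes, -0.15 for neutrophil and monocyte genes, 0.36 for the glucocorticoid receptor list, 0.0862 for glucocorticoid-induced genes, 0.38 for gluconeogenesis, 0.35 for amino acid and urea metabolism, 0.0618 for fatty acid synthesis, 0.30 for cholesterol synthesis, 0.45 for PPARα targets, 0.46 for bile acid genes, 0.43 for P450s, 0.58 for complement and coagulation, 0.54 for hepatocyte markers, 0.0416 for endothelial markers and 0.15 for insulin and growth hormone signalling. The cause was not tested.

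Median scaling gave Cd3e -0.34, Cd8b1 -0.35, Trp53 -0.28 and MHC class II -0.00574. Quantile normalization gave Cd3e -0.0644 and Cd8b1 -0.0184, and replaced backgrounds gave Cd3e -0.0508 and Cd8b1 -0.00345. Scan day 1 alone gave Cd3e -0.0564, Cd8b1 -0.391 and Fkbp5 0.63, every kept probe gave Fkbp5 0.48, and slide as a fixed block gave P450s 0.00476. With an array left out, Fkbp5 ran from -0.92 to 1.02, Cd3e from -0.475 to 0.444, Cd8b1 from -0.26 to 0.281 and Trp53 from -0.0698 to 0.223. Signal over background limits genes near the detection floor, where AAV-GFP arrays give only a bound.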

Other observations

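A further 6 rises lie outside the lists and were picked from the called genes after their values were seen. No list of DNA repair genes was tested, so nothing is said of such genes as a group. Fanci, a subunit of the Fanconi anaemia complex that marks DNA crosslinks, stood at -3.77, -3.60 and -3.39 with AAV-GFP and at -2.07, -1.99 and -1.95 with AAV-hGRβ, a difference of 1.58 (limma, adjusted p = 0.00508). Fanca, another Fanconi gene, rose by 1.32, Fignl1, which acts in homologous recombination, by 2.08, Dscc1, a loader of the replication clamp, by 1.75, Ddias by 1.52 and Aunip by 2.19. Fignl1 and Aunip were well above background on 1 of 3 AAV-GFP arrays, and of the 6 genes all but Ddias lay below 0 under normexp correction.

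Further rises in no list, also named after their values were seen, were Ifi27, an interferon-induced mitochondrial protein (6.44, 6.68 and 6.44 against 8.26, 8.51 and 8.25), the transcription factor Egr2 (2.16) and Sct, the hormone secretin (2.05, limma adjusted p = 0.00928). Egr2 was well above background on 1 of 3 AAV-GFP arrays. Under normexp correction Egr2 stood at -0.305 and Sct at 0.063. Of the 153 called genes 19 carried only an identifier. The array file places the Isg15 probe on chromosome 17 of mm7 (44534906 to 44534965), while the RefSeq promoter of Isg15 lies on chromosome 4, so the placement of that probe is unsettled.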
